A study of Mus musculus with 359 samples.

Results

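The 43 genes described here are genes of the cell division cycle, taken with E2f8 from a list of gene symbols and found as 43 of the 24421 genes counted in each of the 6 count tables of the series. They comprise 4 E2F factors, 4 G1 and S phase cyclins, 10 genes of replication licensing and the replicative helicase, 4 genes of replication and nucleotide supply, 6 genes of mitotic entry, 13 genes of chromosomes, spindle and kinetochore, and 2 genes of anaphase and mitotic exit. The study exposed B6C3F1 mice, a hybrid strain used in carcinogenicity bioassays, to 4-methylimidazole (4-MEI), a small imidazole known as a by-product of caramel colour manufacture, and sequenced polyadenylated RNA from liver and lung. Mice of both sexes received 50, 100, 200 or 300 mg/kg-d by gavage for 2 days, against gavage vehicle at 0 mg/kg-d. Other mice received 150, 300, 1250 or 2500 ppm in feed for 5 or 28 days, against feed at 0 ppm. There were 60 groups and 359 libraries, with 6 libraries in 59 groups and 5 in lung of females at 2500 ppm on day 5. The labels used here give neither the ages of the mice nor what a replicate is beyond a separate sample, so a p-value measures the spread between these samples.

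Cells enter the cycle when cyclin D1 and its kinases release the RB proteins from activating E2F factors, which then turn on the genes that load the MCM helicase and copy DNA. E2f7 and E2f8 encode atypical E2F factors that repress the same targets late in S phase and that drive hepatocytes towards polyploidy in the mouse. Genes of mitosis follow later through FOXM1, once repression by the DREAM complex is lifted. Adult liver is a mostly quiescent tissue, in which activators of the constitutive androstane receptor CAR are known mitogens, and lung is the tissue in which 4-MEI gave tumours in mouse bioassays.

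Library totals ran from 8457034 to 20405658 counts in liver and from 7253910 to 20232366 in lung on day 2, from 11070867 to 22527309 and from 8081043 to 21473135 on day 5, and from 10239848 to 18084863 and from 11692340 to 18207432 on day 28. After the filter on low counts, which asked for about 10 counts in as many libraries as the smallest group holds, 26 of the 43 genes could be tested in liver on day 2, 40 on day 5 and 36 on day 28, and all 43 could be tested in lung on each day. A gene can pass that filter through the group in which it is high, so counts over the tested genes are not counts over the 43. In liver on day 2, vehicle female replicate 9 was the highest vehicle female for 35 of the 43 genes. Male replicate 7 was the highest vehicle male for only 13. Results at 300 mg/kg-d are given with and without these 2 libraries. Levels are given in CPM, the count scaled to the library's size after normalization by the trimmed mean of M-values. Fold changes, standard errors (SE) and p-values come from edgeR's quasi-likelihood test, adjusted by Benjamini-Hochberg over all genes tested in a comparison, and a gene was called past the threshold at an adjusted p below 0.05.

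The cell cycle genes that moved in liver after 2 days of gavage moved mostly down, with E2f8 as the exception. At 300 mg/kg-d, over both sexes, E2f8 rose 2.76-fold, while Mcm5, Mcm6, Mcm3, Mcm2 and Gins1 of the replicative helicase, the G1 cyclin Ccnd1, and the E2F factors E2f1 and E2f2 fell. That is 1 gene higher and 8 lower of 26 tested, or 34.6%, where 41.6% of all 12627 genes tested in this comparison were called. The share of all genes was 20.5% higher and 21.2% lower, so the proportion of cell cycle genes called was no larger than that of genes in general, and its split between directions was 1 to 8. The median log2 fold change was -0.13 over the 26 genes and -0.01 over all genes, with 8 of the 26 positive and 18 negative. Without the 2 high vehicle libraries, replicates 7 and 9, the medians were -0.06 and -0.02. In females the median over the 26 was -0.21, or 0.02 without replicate 9. In bulk RNA, fewer cells of a type and less RNA per cell cannot be told apart.

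**Figure D1:**
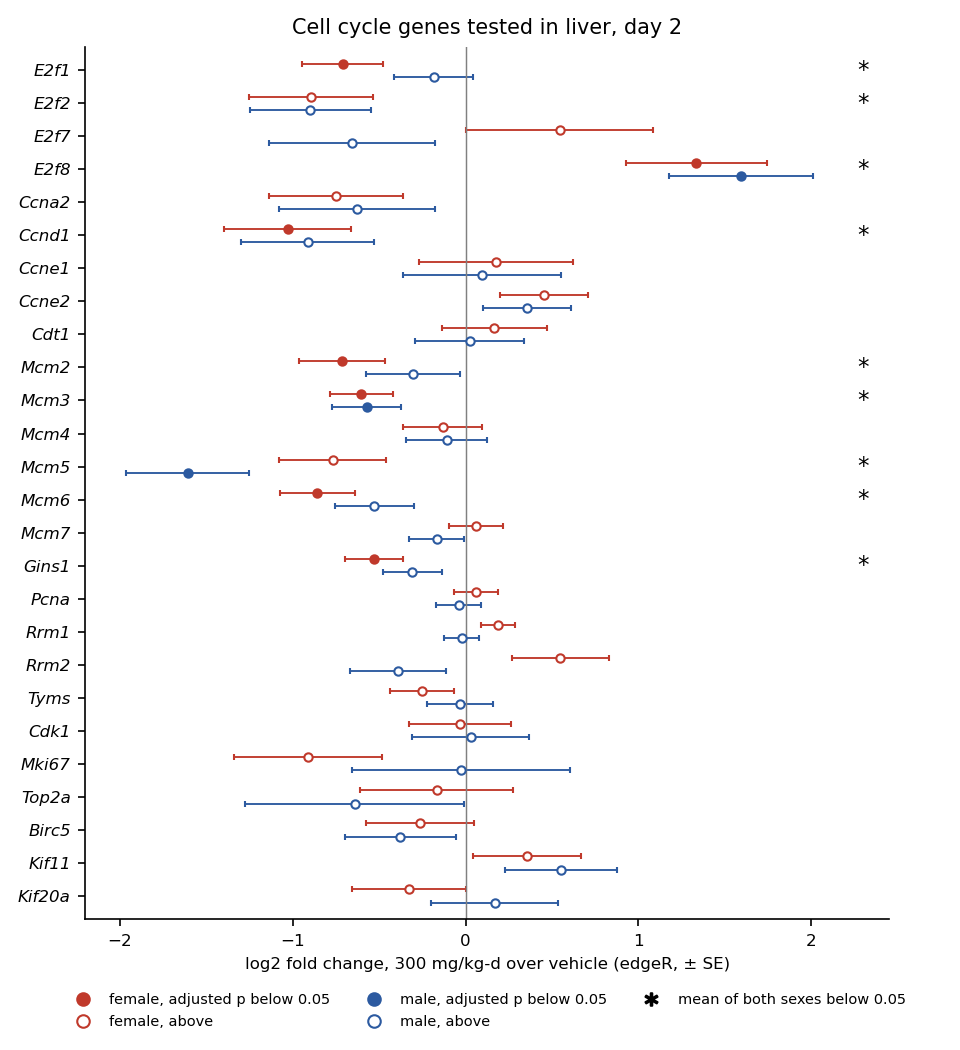
Log2 fold change of each of the 26 tested cell cycle genes in liver after 2 days at 300 mg/kg-d over vehicle, with its standard error, in females and in males; filled points were past an adjusted p of 0.05 in that sex and a star marks genes past it over both sexes. E2f8 stands alone on the right at 1.47, and Mcm5 lies farthest left at -1.19 over both sexes.

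E2f8 (ENSMUSG00000046179, chromosome 7, 48866429 to 48881596 on the minus strand of GRCm38) overlaps the gene Gm2788 on the opposite strand, and whether reads were assigned by strand is not known from the sources used. In liver on day 2, females at 300 mg/kg-d had a lowest, median and highest value of 8.41, 13.5 and 19.2 CPM, against 2.65, 6.07 and 8.39 CPM in vehicle females. Males at 300 mg/kg-d had 6.81, 14.7 and 26.2 CPM, against 1.53, 3.4 and 12 CPM in vehicle males. The female groups did not overlap, and 4 of 6 treated males stood above the highest vehicle male while all 6 stood above the vehicle mean of 5.06 ± 4.19 CPM (SD, n = 6). The log2 fold change was 1.34 in females (SE 0.41, adjusted p = 0.0109), 1.60 in males (SE 0.42, adjusted p = 0.00712) and 1.47 over both sexes (SE 0.29, adjusted p = 7.4e-05). In each sex E2f8 was the only gene of the 26 tested that was called higher at this dose, and its change in females and in males was not shown to differ. With only the compared groups in the fit, the call was lost in males at this dose (adjusted p = 0.0539).

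Lower gavage doses gave E2f8 values between those of vehicle and the highest dose in females, and in males values near those of the highest dose at 50 and 100 mg/kg-d and lower ones at 200 mg/kg-d. Female medians were 6.07, 8.88, 7.66, 8.85 and 13.5 CPM from 0 to 300 mg/kg-d, with log2 fold changes of 0.69, 0.64, 0.74 and 1.34 over vehicle. Male medians were 3.4, 14.8, 14.5, 8.15 and 14.7 CPM, with log2 fold changes of 1.54, 1.52, 0.99 and 1.60. The spread within the male groups was wide, from 4.3 to 25.1 CPM at 100 mg/kg-d and from 6.87 to 25.8 CPM at 50 mg/kg-d. E2f8 was past the threshold in males at 100 mg/kg-d (log2 fold change 1.52, SE 0.42, adjusted p = 0.026), where 4.7% of all genes were called, though not with only the compared groups in the fit (adjusted p = 0.163). It was also past it over both sexes at that dose (log2 fold change 1.08, adjusted p = 0.0434), where 1.66% of all genes were called. It was not past it over both sexes at 50 mg/kg-d (adjusted p = 0.109; 0.0238% of all genes called) or at 200 mg/kg-d (adjusted p = 0.0574; 9.5% called), where DESeq2 called it (adjusted p = 0.0365).

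**Figure D2:**
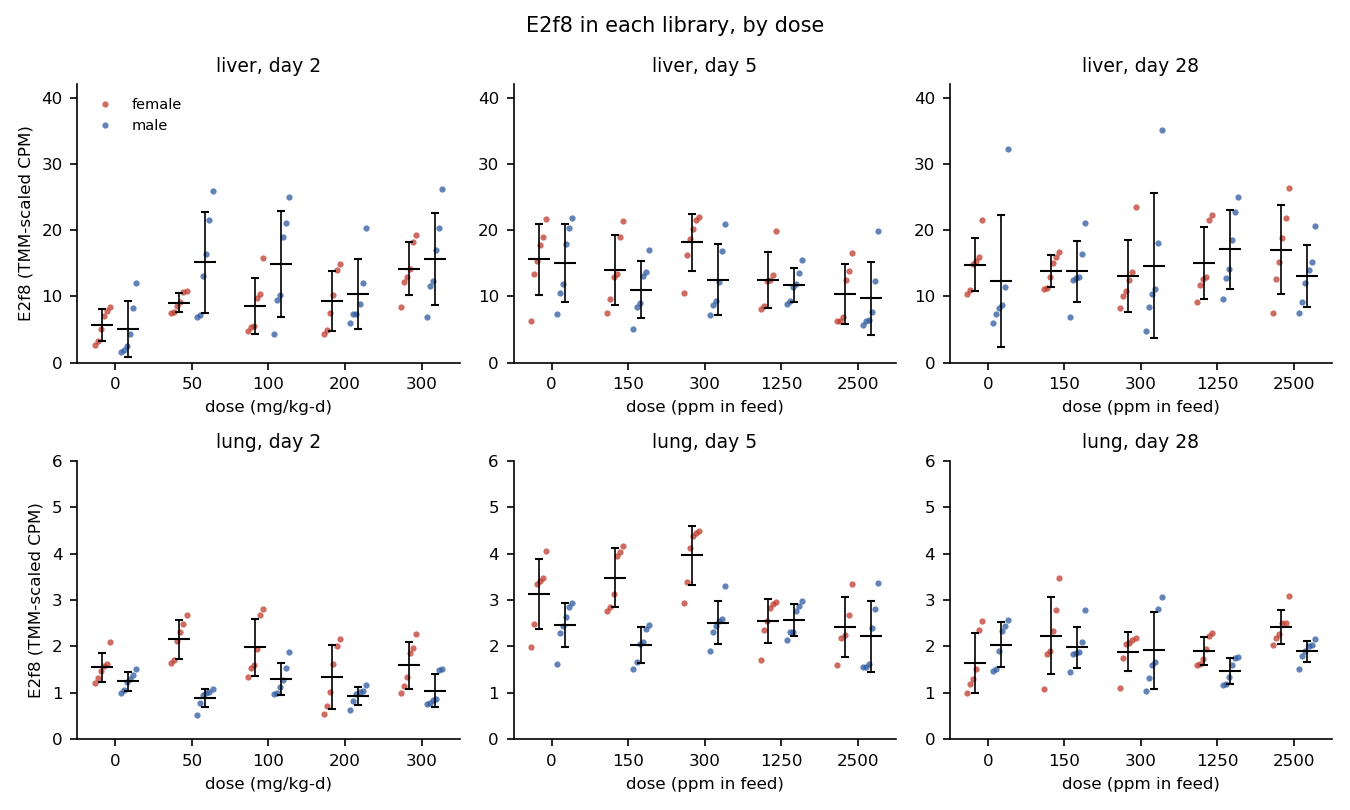
E2f8 in every library, in CPM, by dose, with females in red to the left and males in blue to the right at each dose and bars giving mean ± SD; liver is in the upper panels and lung in the lower ones, with days 2, 5 and 28 from left to right. The highest liver library of day 2 is a male at 300 mg/kg-d, with 26.2 CPM, and vehicle means are lower in lung than in liver in each pair of panels.

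Of the 10 genes of licensing and the helicase, 8 could be tested in liver on day 2, and 5 of the 8 fell over both sexes at 300 mg/kg-d. Mcm5 (chromosome 8, 75109569 to 75128439, plus strand), a subunit of the MCM2-7 helicase that unwinds DNA at the fork, had 1.06, 1.29 and 2.22 CPM as lowest, median and highest in females at 300 mg/kg-d, against 1.28, 2.12 and 4.62 CPM in vehicle females. In males at 300 mg/kg-d it had 0.326, 0.675 and 0.991 CPM, against 0.814, 1.54 and 4.6 CPM in vehicle males. The groups overlapped in both sexes, in males only between the lowest vehicle and the highest treated libraries. The log2 fold change was -1.61 in males (SE 0.36, adjusted p = 0.0017), -0.77 in females (SE 0.31, adjusted p = 0.0526, or 0.0236 without treated female replicate 75) and -1.19 over both sexes (SE 0.24, adjusted p = 6.35e-05). Over both sexes Mcm5 also fell at the next lower dose of 200 mg/kg-d, with -1.02 and an adjusted p of 0.00654. These are low counts, and a library held between 5 and 56 counts of Mcm5.

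Mcm6 (chromosome 1, 128331590 to 128359664, minus strand), another helicase subunit, had 2.58, 3.37 and 4.49 CPM in females at 300 mg/kg-d, against 3.61, 5.6 and 11.2 CPM in vehicle females. In males at 300 mg/kg-d it had 2.64, 3.16 and 3.65 CPM, against 3.92, 4.12 and 5.99 CPM in vehicle males. The male groups did not overlap and the female groups overlapped in part, but it was the female difference that passed the test, with a log2 fold change of -0.86 (SE 0.22, adjusted p = 0.00221), against -0.53 in males (adjusted p = 0.105). Over both sexes it was -0.69 (SE 0.16, adjusted p = 0.000383). The male groups did not overlap at 200 mg/kg-d either (log2 fold change -0.50, adjusted p = 0.778; 0.0158% of all genes were called in that comparison).

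Mcm3 (chromosome 1, 20802968 to 20820312, minus strand), also of the helicase, had 2.93, 3.28 and 4 CPM in females at 300 mg/kg-d, against 2.97, 4.87 and 7.35 CPM in vehicle females. In males at 300 mg/kg-d it had 1.66, 2.13 and 3 CPM, against 2.26, 3.1 and 5.42 CPM in vehicle males. The ranges overlapped in both sexes, with the median lower in treated mice of each. It fell by a similar log2 amount in females (-0.60, SE 0.18, adjusted p = 0.00915) and in males (-0.57, SE 0.20, adjusted p = 0.0415), and by 0.59 over both sexes (SE 0.13, adjusted p = 0.000404). The male call was lost without treated male replicate 66 (adjusted p = 0.0506) or 67 (adjusted p = 0.0909), or without vehicle male replicate 7 (-0.38, adjusted p = 0.225). It was also lost with no filter on low counts (adjusted p = 0.0685), with only the compared groups in the fit (adjusted p = 0.101) and with the trend over transcript length removed (adjusted p = 0.0641).

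Mcm2 fell in females, with 1.28, 2.12 and 3.02 CPM at 300 mg/kg-d, against 2.8, 3.1 and 6.22 CPM in vehicle females (log2 fold change -0.72, SE 0.25, adjusted p = 0.0232). In males Mcm2 had -0.30 (adjusted p = 0.472). Gins1, a subunit of the GINS complex that joins the helicase to the polymerases, had 1.55, 2 and 2.22 CPM in females at 300 mg/kg-d, against 1.94, 2.87 and 3.68 CPM in vehicle females (log2 fold change -0.53, SE 0.17, adjusted p = 0.0126). With the trend over transcript length removed the female change of Gins1 was -0.31 (adjusted p = 0.176). In males without that removal it had -0.31 (adjusted p = 0.224). For both genes the highest treated females overlapped only the lowest vehicle females. Mcm4 (-0.12), Mcm7 (-0.05) and Cdt1 (0.10), which loads the helicase, had log2 fold changes close to 0 over both sexes and were not called. The helicase subunits therefore did not all pass the test, and Cdc6 and Gins2 were too low to test.

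**Figure D3:**
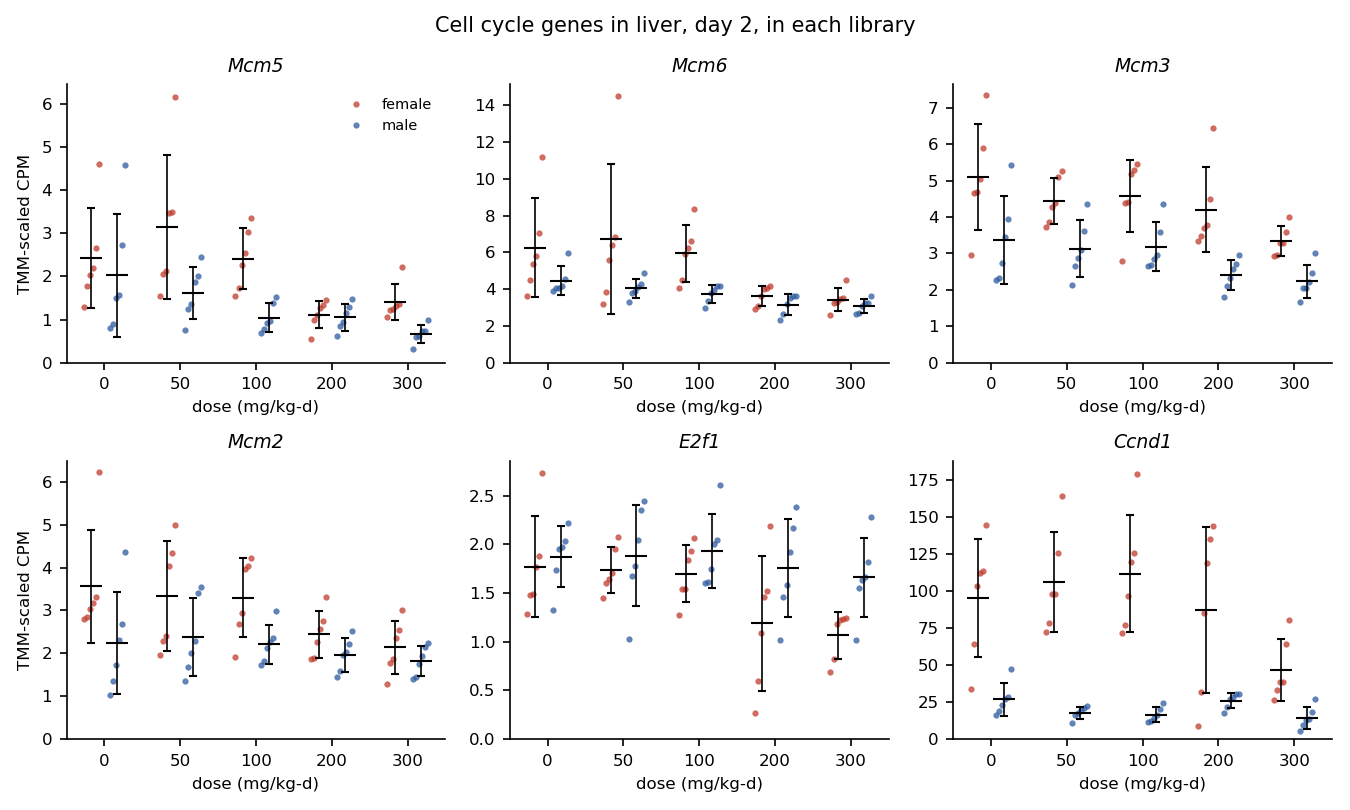
Mcm5, Mcm6, Mcm3, Mcm2, E2f1 and Ccnd1 in every liver library of day 2, in CPM, by dose in mg/kg-d, with females to the left and males to the right at each dose and bars giving mean ± SD. Of the 6 libraries of each sex at 300 mg/kg-d all lie below the vehicle mean of that sex, except 1 male for E2f1, with 1 vehicle library of each sex high for the MCM genes.

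In liver on day 2, 1 vehicle female library stood high for most of these genes, and 1 vehicle male library for fewer of them. Female replicate 9 was the highest of the 6 vehicle females for 35 of the 43 genes, with 5.47 CPM of Mki67 where the median was 1.27, and male replicate 7 was the highest vehicle male for 13, with 12 CPM of E2f8. Without both libraries, left out after the data were seen, 2 genes rose and 6 fell of 26 at 300 mg/kg-d over both sexes, where 37.9% of all genes were called. E2f8 then stood at 1.75 (SE 0.30, adjusted p = 1.34e-05), Mcm5 at -0.86 (adjusted p = 0.00204), Mcm6 at -0.53, Mcm3 at -0.43, Ccnd1 at -0.94, E2f2 at -0.87 and Gins1 at -0.36. Mcm2 (-0.25, adjusted p = 0.259) and E2f1 (-0.36, adjusted p = 0.0922) lost the call. Mcm2 lost it without either library alone (adjusted p = 0.109 without replicate 7 and 0.0608 without replicate 9) and E2f1 without replicate 9 alone (adjusted p = 0.0554). In females without replicate 9 neither was past the threshold (adjusted p = 0.119 for Mcm2 and 0.0651 for E2f1), and without both libraries Ccnd1 was not past it in females (adjusted p = 0.0506). Ccne2, the partner of Cdk2 at the start of S phase, gained a call without both libraries (0.49, adjusted p = 0.0342). In males without replicate 7 the log2 fold change of E2f8 was 2.04 and that of Mcm5 was -1.19.

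Promoters are shown for E2f8, which rose, and for 3 MCM genes, which fell, since both kinds are known E2F targets. The letters TTTGGCGC, TTTGCCGC, TTTCCCGC and TTTCGCGC, searched on both strands as an E2F motif, stood in 9 of 33 cell cycle genes. These 33 have an entry in the RefSeq promoter table of GRCm38.p6, which gives 250 bases before to 50 after the gene start. That is 27.3%, against 2.605% of 27025 genes with an entry. The 9 included 6 of 7 genes of licensing and the helicase with an entry, namely Cdc6, Cdt1, Mcm3, Mcm5, Mcm6 and Mcm7. They also included E2f2 and E2f7. Mcm2 and E2f1, which fell in liver at the highest gavage dose over both sexes, had an entry without these letters. Mcm7, Cdt1 and E2f7 had the letters and were not called in that comparison. The 3 MCM genes shown all had the letters, so they do not stand for every gene that fell. The CHR letters TTTGAA and TTCGAA, known from mitotic genes, stood in 17 of 33 (51.5%), against 21.7% of all genes, and CCAAT stood in 26 of 33 (78.8%), against 41.1%. In the 4 sequences below, read 5′ to 3′ along each gene's strand, capitals mark the E2F letters in Mcm3, Mcm5 and Mcm6 and the CHR letters, here on the opposite strand, in E2f8.
E2f8, chr7:48881547-48881846, minus strand: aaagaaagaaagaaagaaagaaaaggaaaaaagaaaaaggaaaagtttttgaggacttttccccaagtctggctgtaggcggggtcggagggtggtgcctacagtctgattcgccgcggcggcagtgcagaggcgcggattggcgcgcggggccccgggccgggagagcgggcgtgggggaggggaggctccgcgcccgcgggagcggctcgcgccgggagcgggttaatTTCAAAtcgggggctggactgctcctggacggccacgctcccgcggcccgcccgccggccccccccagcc
Mcm5, chr8:75109259-75109558, plus strand: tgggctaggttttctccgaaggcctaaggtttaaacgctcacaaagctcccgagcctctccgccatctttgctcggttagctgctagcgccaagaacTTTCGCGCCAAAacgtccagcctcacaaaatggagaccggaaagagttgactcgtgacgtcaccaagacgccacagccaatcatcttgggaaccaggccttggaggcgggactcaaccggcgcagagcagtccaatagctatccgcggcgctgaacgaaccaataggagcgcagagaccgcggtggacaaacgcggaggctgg
Mcm6, chr1:128359656-128359955, minus strand: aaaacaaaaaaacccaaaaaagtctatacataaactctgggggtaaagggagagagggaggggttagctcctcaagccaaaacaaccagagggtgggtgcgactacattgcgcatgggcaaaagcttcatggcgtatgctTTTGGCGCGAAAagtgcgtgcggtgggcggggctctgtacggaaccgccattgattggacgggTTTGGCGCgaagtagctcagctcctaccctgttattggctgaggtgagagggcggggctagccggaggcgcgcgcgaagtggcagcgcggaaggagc
Mcm3, chr1:20820263-20820562, minus strand: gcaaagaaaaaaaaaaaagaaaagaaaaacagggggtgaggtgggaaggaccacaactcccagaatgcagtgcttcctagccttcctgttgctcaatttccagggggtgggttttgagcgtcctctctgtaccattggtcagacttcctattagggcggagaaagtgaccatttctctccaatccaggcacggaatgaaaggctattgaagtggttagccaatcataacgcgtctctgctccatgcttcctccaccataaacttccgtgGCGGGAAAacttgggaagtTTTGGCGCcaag
The run TTTCGCGCCAAA in Mcm5 holds 2 overlapping matches on opposite strands, Mcm6 holds 3 matches of which 2 overlap, and Mcm3 holds 2 that do not overlap. None of the E2F letters stood in the E2f8 window. A match is a description of these letters and not a site or a cause.

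Among the G1 and S phase cyclins, Ccnd1 fell. Ccnd1 (chromosome 7, 144929931 to 144939925, minus strand, with LTO1 on the other strand), the D-type cyclin through which mitogens start the cycle, had 26.1, 38.3 and 80 CPM in females at 300 mg/kg-d, against 33.5, 107.7 and 145 CPM in vehicle females. Males at 300 mg/kg-d had 5.76, 12.9 and 26.9 CPM, against 16.5, 25 and 47.5 CPM in vehicle males. Both pairs of groups overlapped, and vehicle females had higher values than vehicle males in most libraries. The log2 fold change was -1.03 in females (SE 0.37, adjusted p = 0.0289), -0.91 in males (SE 0.39, adjusted p = 0.0963) and -0.97 over both sexes (SE 0.27, adjusted p = 0.00289), a level of 0.51 times that of vehicle. The S phase cyclins were not called at that dose over both sexes, with log2 fold changes of 0.13 for Ccne1, 0.41 for Ccne2 (adjusted p = 0.0637) and -0.69 for Ccna2 (adjusted p = 0.057). Ccna2 was low, with a median of 0.474 CPM in females at 300 mg/kg-d, against 0.681 CPM in vehicle females, and 0.363 CPM in males at 300 mg/kg-d, against 0.517 CPM in vehicle males.

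Of the activating E2F factors, E2f1 and E2f2 fell over both sexes, while E2f3, which is not among the 43 genes, rose. The E2f1 call was lost without vehicle female replicate 9 (adjusted p = 0.0554). It was also lost with the trend over transcript length removed (adjusted p = 0.0565), and the E2f3 value is given with that trend in place. E2f1, which opens S phase, had 0.691, 1.2 and 1.25 CPM in females at 300 mg/kg-d, against 1.28, 1.63 and 2.73 CPM in vehicle females. The female groups did not overlap (log2 fold change -0.71, SE 0.24, adjusted p = 0.0178), while males had a log2 fold change of -0.18 (adjusted p = 0.627). E2f2, its close relative, had 0.587, 0.733 and 0.976 CPM in females at 300 mg/kg-d, against 0.812, 1 and 2.85 CPM in vehicle females. In males at 300 mg/kg-d E2f2 had 0.3, 0.924 and 1.42 CPM, against 0.828, 1.69 and 2.71 CPM in vehicle males, and the groups overlapped in both sexes. The log2 fold change of E2f2 was -0.90 in each sex and reached the threshold only over both (SE 0.25, adjusted p = 0.00332). E2f7, the other atypical E2F, had a log2 fold change of -0.06 over both sexes and was not called.

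No gene of replication and nucleotide supply was called at 300 mg/kg-d by edgeR or DESeq2, in females, in males or over both sexes, and none had an unadjusted p below 0.05. Over both sexes the log2 fold changes were 0.01 for Pcna, the sliding clamp of the polymerases, 0.08 for Rrm1 and 0.08 for Rrm2, the subunits of ribonucleotide reductase, and -0.14 for Tyms, thymidylate synthase. Rrm2 had 2.09, 3.3 and 5.92 CPM in females at 300 mg/kg-d, against 1.54, 2.4 and 3.52 CPM in vehicle females. In males at 300 mg/kg-d it had 1.63, 2.95 and 3.63 CPM, against 2.87, 3.59 and 4.62 CPM in vehicle males. Its median was thus higher in treated females and lower in treated males, and the female minus male difference in effect was 0.94 (SE 0.40, unadjusted p = 0.021, adjusted p = 1.00). Of the 26 genes none differed in effect between the sexes by edgeR at an adjusted p below 0.05, Rrm2 was the only one with an unadjusted p below 0.05, and DESeq2 called none, where 0.00792% of all genes were called.

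Mitotic genes were near the limit of detection in liver on day 2. Of the 21 genes of mitotic entry, chromosomes and exit, 6 were tested and edgeR and DESeq2 called none at 300 mg/kg-d over both sexes, with Kif11 the only one at an unadjusted p below 0.05. The log2 fold changes over both sexes were -0.47 for Mki67, the proliferation antigen, -0.40 for Top2a, the topoisomerase that untangles sister chromatids, 0.00 for Cdk1, the mitotic kinase, -0.32 for Birc5, 0.45 for Kif11 and -0.08 for Kif20a. The CPM of the 21 summed to 5.4, 7.97 and 12.1 as lowest, median and highest in females at 300 mg/kg-d, against 6.01, 7.54 and 26.8 in vehicle females. Males at 300 mg/kg-d had sums of 4.83, 5.46 and 7.19, against 4.17, 5.83 and 8.45 in vehicle males. The ranges overlapped in both sexes and the medians were close. The 17 untested genes, 15 of them mitotic, had at most 26 counts in any library, and Ccnb1, the cyclin partner of Cdk1, had no count in 38 of 60 libraries.

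Taken over the order of the 5 doses, 1 gene rose and 11 fell of 26 with both sexes (46.2%, where 41.4% of all genes were called, 21% higher and 20.5% lower), 2 rose and 9 fell in females (37.5% of all genes) and 2 fell in males (9.23% of all genes). E2f8 rose by 0.27 per dose step on the log2 scale over both sexes (SE 0.06, adjusted p = 0.000807). Mcm5 declined, at -0.34 per step (SE 0.05, adjusted p = 9.3e-07), as did Mcm6, at -0.20 (SE 0.04, adjusted p = 9.87e-06). Mcm3, Mcm2, Gins1, Ccnd1, E2f1 and E2f2 also declined over both sexes. Ccna2 (-0.20 per step, adjusted p = 0.017), Mki67 (-0.23, adjusted p = 0.0362) and Top2a (-0.21, adjusted p = 0.0493) declined with dose order although no single dose passed the test. Without vehicle female replicate 9 none of these 3 was past the threshold (adjusted p = 0.0641 for Ccna2, 0.0913 for Mki67 and 0.123 for Top2a). Rrm2 rose with dose order in females (0.19 per step, SE 0.06, adjusted p = 0.0154). In males Mcm5 and Mcm3 were the 2 that declined. DESeq2 also called E2f8 as rising with dose order in males (0.27 per step, adjusted p = 0.037). It further called declines of Plk1 over both sexes (-0.39 per step, adjusted p = 0.0241) and of Ccnb2, Cenpf, Prc1 and Tpx2 in females. The adjusted p of these in females ran from 0.0432 to 0.0489, with vehicle replicate 9 included. Plk1, Ccnb2, Cenpf, Prc1 and Tpx2 were too low for the filter used with edgeR.

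Below the highest dose few genes were called. At 200 mg/kg-d Mcm5 and Mcm6 fell in females (16.8% of all genes called), with log2 fold changes of -1.09 (adjusted p = 0.0216) and -0.77 (adjusted p = 0.0153), and over both sexes. In females neither was past the threshold without vehicle replicate 9 (adjusted p = 0.0868 for Mcm5 and 0.0853 for Mcm6) or without treated replicate 64, and over both sexes neither was without vehicle replicates 7 and 9 together (0.0613 and 0.0624), where E2f8 was (1.15, adjusted p = 0.0209). At 100 mg/kg-d E2f8 alone was called, in males and over both sexes. In females none was called by edgeR, 1 gene had an unadjusted p below 0.05, DESeq2 called none and 0.0396% of all genes were called. At 50 mg/kg-d edgeR called none of the 26 in females (none at an unadjusted p below 0.05; 0% of all genes called), in males (2 at an unadjusted p below 0.05; 0.0634% of all genes called) or over both sexes (4 at an unadjusted p below 0.05), while DESeq2 called 1 gene, E2f8, in males and over both sexes. At 300 mg/kg-d counted by sex, 1 gene rose and 6 fell in females, or 26.9%, where 30% of all genes were called, 15.3% higher and 14.7% lower. In males 1 rose and 2 fell, or 11.5%, where 15.1% of all genes were called, 8.64% higher and 6.47% lower.

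Other replication genes, a list of 33 that does not overlap the 43, showed 0 higher and 14 lower of 29 tested at 300 mg/kg-d over both sexes, where 41.6% of all genes were called, 20.5% higher and 21.2% lower. The median log2 fold change of the list was -0.25, against -0.01 for all genes. Without vehicle replicates 7 and 9 there were 0 higher and 11 lower, with a median of -0.22. Both counts are given with the trend of log2 fold change over transcript length in place. Rfc4, a subunit of the clamp loader, had 1.83, 2.03 and 2.18 CPM in females at 300 mg/kg-d, against 2.28, 2.82 and 3.24 CPM in vehicle females. Rfc4 in males at 300 mg/kg-d had 1.25, 1.52 and 2.54 CPM, against 2.03, 3.3 and 4.07 CPM in vehicle males. The female groups did not overlap, and the log2 fold change over both sexes was -0.64 (SE 0.12, adjusted p = 2.78e-05). Rfc3 (-0.45), the polymerase delta subunit Pold1 (-0.54), the primase subunit Prim2 (-0.49), the DNA ligase Lig1 (-0.58) and the dUTPase Dut (-0.45) fell too.

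Of the genes of the E2F and RB family outside the 43, 6 of 13 tested were higher and none was lower over both sexes, where 20.5% of all genes were higher and 21.2% lower. Without vehicle replicates 7 and 9 there were 4 higher and 1 lower. The 6 were Lin54, a DNA-binding subunit of the DREAM complex (log2 fold change 0.57, SE 0.12, adjusted p = 0.000112), Rb1, the retinoblastoma protein that holds E2F factors in check (0.34), its relative Rbl2 (0.34), Tfdp2, a dimer partner of E2F factors (0.39), Lin52 (0.21) and E2f3 (0.23). Log2 fold change rose with transcript length across genes in these livers, and the values of this list are given with that trend in place. Among genes with the longest transcripts the median log2 fold change was 0.17 in females and 0.18 in males. Among those with the shortest it was -0.17 in females and -0.14 in males. Of 5 cyclin-dependent kinase inhibitors tested, Cdkn1b, which encodes p27, rose (0.33, SE 0.08, adjusted p = 0.000717). Cdkn1a, which encodes p21, rose in females (2.94, SE 1.15, adjusted p = 0.0473), with 0.863, 7.96 and 28.1 CPM at 300 mg/kg-d, against 0.864, 1.2 and 2.32 CPM in vehicle females. The lowest treated library lay among the vehicle ones and the others spread widely. Among 12 other cyclins and kinases Cdk6 (0.50) and Cdc25a (0.33) rose and Cdk4 (-0.16) fell. Among 16 other mitosis genes tested Smc4 (0.40), Nek2 (0.86) and Ect2 (0.71) rose while Spc24 (-0.78) and Cdca3 (-0.66) fell.

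Growth factor and CAR-linked mitogenic genes were higher in 4 of 11 tested and lower in none, where 20.5% of all genes were higher and 21.2% lower. Without vehicle replicates 7 and 9 there were 3 higher and none lower. These counts, too, are given with the trend over transcript length in place. Hgf, the hepatocyte growth factor, had 14.2, 20.5 and 25.2 CPM in females at 300 mg/kg-d, against 3.45, 6.07 and 7.77 CPM in vehicle females. Males at 300 mg/kg-d had 8.23, 9.71 and 22.2 CPM, against 3.91, 5.2 and 6.87 CPM in vehicle males. Neither pair of groups overlapped, and the log2 fold change over both sexes was 1.46 (SE 0.15, adjusted p = 3.61e-10). Its receptor Met (0.53), the EGF receptor Egfr (0.68) and Gadd45b (1.00) also rose. Of 4 CAR and PXR response genes only Cyp2b10, the reporter gene of CAR, rose (2.21, SE 0.38, adjusted p = 8.04e-06). Of 6 regulators of ploidy and binucleation tested, the Hippo kinases Lats1 (0.37) and Lats2 (0.40) and Ankrd50 (0.26) rose, and Pidd1 (-0.53) fell.

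Other measures moved with 300 mg/kg-d in these livers, and their part in the changes of the cell cycle genes was not tested. Over both sexes 20.5% of all genes were higher and 21.2% lower at this dose, beside which the marker counts stand. Of 8 endothelial markers 7 were higher. Their summed levels were 362 to 426 CPM in females at 300 mg/kg-d, against 312 to 362 CPM in vehicle females, and 314 to 400 CPM in males at 300 mg/kg-d, against 252 to 315 CPM in vehicle males. Of 10 Kupffer cell markers 1 was higher and 4 were lower. Of 4 tested erythroid genes 2 were lower, Tfrc (-0.92) and Klf1 (-0.38), with 5 of the 12 erythroid genes at 0. The hepatocyte markers summed to between 177210 and 198580 CPM in females at 300 mg/kg-d, against 133910 and 185330 CPM in vehicle females, and to between 113550 and 134990 CPM in males at 300 mg/kg-d, against 112210 and 127930 CPM in vehicle males. Log2 fold change also rose with transcript length across genes, with Spearman's rho of 0.37 in females and 0.41 in males, as a description over genes that share libraries. With that trend removed over both sexes, 26.9% of the 26 genes were called, where 32.3% of all genes were. Of the 9 genes called with it in place, 7 stayed past the threshold. Gins1 (-0.23, adjusted p = 0.145) and E2f1 (-0.40, adjusted p = 0.0565) did not. The counts of the other gene lists and markers are given with the trend in place.

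In the feed study no cell cycle gene was past the threshold in liver at any dose, where at most 0.608% of all genes were called on day 5 and 1.48% on day 28. After 5 days at 2500 ppm over both sexes, edgeR called none of 40 tested, 8 had an unadjusted p below 0.05, and DESeq2 called none of those to which it gave an adjusted p; 0.608% of all genes were called. The median log2 fold change was -0.32, with 33 of 40 negative and a range of -1.11 to 0.35, and the smallest adjusted p was 0.286. E2f8 had 6.23, 9.66 and 16.6 CPM in females at 2500 ppm, against 6.24, 16.6 and 21.8 CPM in females at 0 ppm. Males at 2500 ppm had 5.72, 7.01 and 19.8 CPM, against 7.27, 14.9 and 21.8 CPM in males at 0 ppm. The ranges overlapped almost wholly, and the log2 fold change over both sexes was -0.60 (SE 0.22, adjusted p = 0.286), the opposite sign to gavage. Ccnd1 had 0.35 (SE 0.17, adjusted p = 0.487) and Mcm5 -0.43 (SE 0.20, adjusted p = 0.459).

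After 28 days at 2500 ppm edgeR called none of 36 tested in liver over both sexes, 6 had an unadjusted p below 0.05, and DESeq2 called none of those to which it gave an adjusted p; 1.48% of all genes were called. The median log2 fold change was -0.20, with 25 of 36 negative. E2f8 had 7.42, 17 and 26.3 CPM in females at 2500 ppm, against 10.4, 15.1 and 21.5 CPM in females at 0 ppm. Males at 2500 ppm had 7.49, 13 and 20.6 CPM, against 6.04, 8.52 and 32.3 CPM in males at 0 ppm, where 1 library stood far above the rest. Its log2 fold change over both sexes was 0.14 (SE 0.25, adjusted p = 0.837). Closest to the threshold were Mcm5 over dose order in females (-0.13 per step, adjusted p = 0.0739) and Rrm2 over dose order in both sexes (-0.12 per step, adjusted p = 0.0836), and Ccnd1 had -0.45 (SE 0.16, adjusted p = 0.132) at 2500 ppm.

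The same feed livers held a CAR and PXR response. Cyp3a11, Cyp2c29, Cyp2c55 and Cyp2b10, drug-metabolising enzymes under these receptors, were higher at 2500 ppm over both sexes in 4 of 4 cases on each day. Their log2 fold changes were 0.76, 0.85, 1.37 and 1.47 on day 5 and 0.90, 0.96, 2.09 and 2.53 on day 28. Among the other cell cycle lists, Cdkn1a rose on day 28 over both sexes (1.41, SE 0.37, adjusted p = 0.0321) and in females (2.31, SE 0.50, adjusted p = 0.00775). The 30 other replication genes tested had median log2 fold changes of 0.00 on day 5 and -0.04 on day 28. The effect of 2500 ppm on the cell cycle genes was not shown to differ between day 28 and day 5 in liver or in lung, with edgeR calling none of them over both sexes (0.00762% of all genes called in liver and 0% in lung) and with 5 genes in liver and 6 in lung at an unadjusted p below 0.05; DESeq2 was not run for it. For E2f8 in liver that difference was 0.74 (SE 0.34, adjusted p = 0.409).

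**Figure D4:**
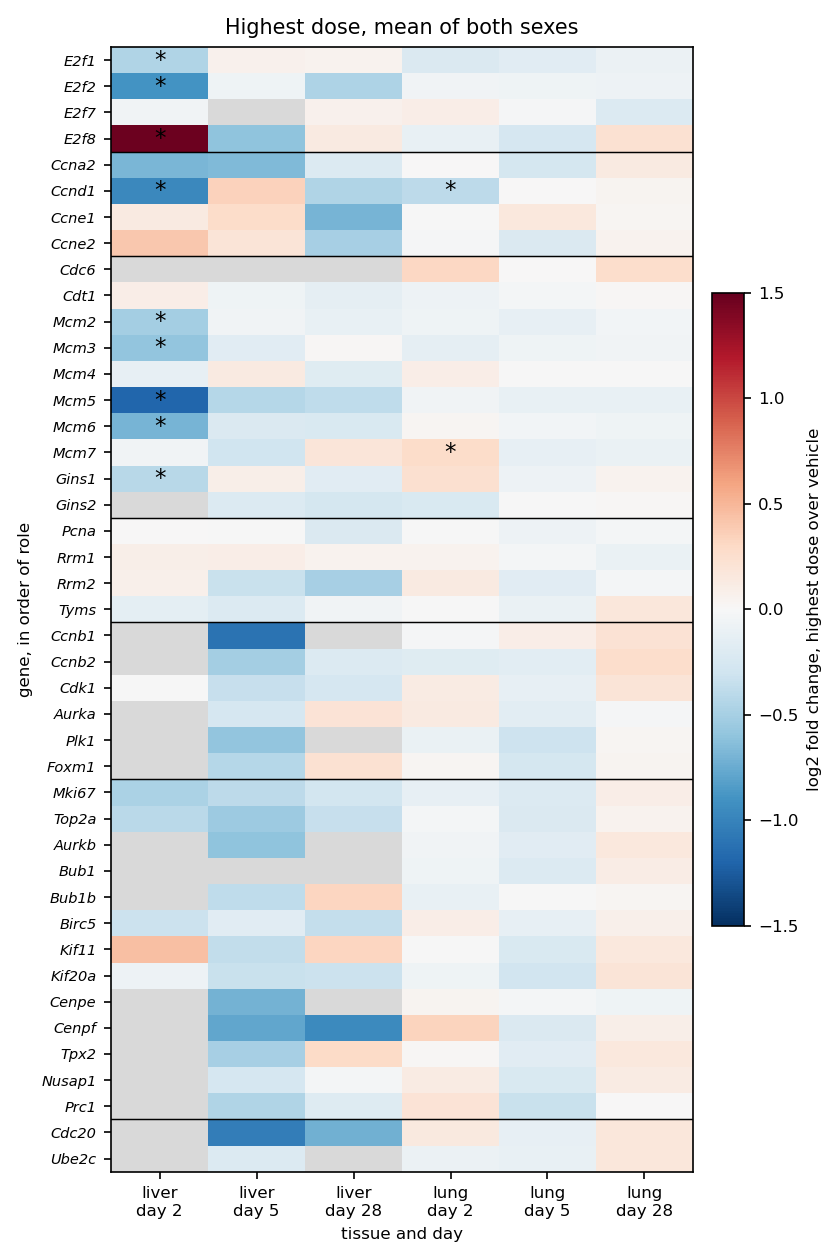
Log2 fold change of all 43 cell cycle genes at the highest dose over vehicle, mean of both sexes, with 1 column for each tissue and day; grey cells were below the low-count filter and a star marks an adjusted p below 0.05. The 9 stars of liver on day 2 and the 2 of lung on day 2 are the only ones, and E2f8 is the deepest positive cell.

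Lung held more of these transcripts than liver. In vehicle libraries, which were normalized table by table so that this is a description, the liver mean exceeded the lung mean in all 6 pairs of day and sex for E2f8 and Gins1, in 5 of 6 for Ccne1, in 1 of 6 for 4 genes (Birc5, Ccne2, Rrm2 and Tyms) and in none for the other 36. E2f8 averaged 5.7 ± 2.4 CPM in liver and 1.55 ± 0.31 CPM in lung of vehicle females on day 2 (SD, n = 6 each), and 15.6 ± 5.41 CPM in liver and 3.13 ± 0.75 CPM in lung on day 5. The summed CPM of the 21 mitotic genes had a median of 7.54 in liver and 66.2 in lung of vehicle females on day 2.

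In lung on day 2, Ccnd1 fell and Mcm7 rose at 300 mg/kg-d over both sexes, 2 of 43 genes, where 10.4% of all genes were called. Without treated male replicate 66 there were 0 higher and 2 lower, Ccnd1 and E2f1, where 21.6% of all genes were called. Ccnd1 had 145, 161 and 216 CPM in females at 300 mg/kg-d, against 204, 234 and 288 CPM in vehicle females. Males at 300 mg/kg-d had 167, 184 and 198 CPM, against 185, 229 and 255 CPM in vehicle males. The groups overlapped at their edges, and the log2 fold change was -0.51 in females (SE 0.14, adjusted p = 0.0117; 8.73% of all genes called), -0.27 in males (adjusted p = 0.328; 0.21% called) and -0.39 over both sexes (SE 0.10, adjusted p = 0.00477). Of 8 tested T and NK cell markers 6 were lower in the same comparison and none higher. Their sums ran from 19.5 to 61.4 CPM in females at 300 mg/kg-d, against 50.1 to 80.5 CPM in vehicle females, and 18.4 to 49.2 CPM in males at 300 mg/kg-d, against 32.6 to 47.9 CPM in vehicle males. None of these genes was at 0 throughout, and their part in the Ccnd1 result was not tested.

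Mcm7 had 10.4, 13.1 and 15 CPM in lung of females at 300 mg/kg-d, against 10.1, 10.6 and 11.3 CPM in vehicle females. Males at 300 mg/kg-d had 9.04, 10.3 and 22.3 CPM, against 7.91, 10.4 and 10.8 CPM in vehicle males. The groups overlapped in both sexes, and 1 treated male stood far above the others. The log2 fold change over both sexes was 0.28 (SE 0.09, adjusted p = 0.0434), and without male replicate 66, which gave the value of 22.3 CPM, it was 0.15 (adjusted p = 0.112). Mcm7 overlaps Cops6 and Ap4m1 on the opposite strand and hosts Mir25, Mir93 and Mir106b, so the same limit on strand applies. Over dose order Mcm7 rose (0.06 per step) and Ccnd1 (-0.09) and Mcm3 (-0.04) fell with both sexes, where 18.1% of all genes were called. Ccnd1 (-0.13) and E2f1 (-0.09) fell in females, where 17.1% were called. The 32 other replication genes tested in lung had a median log2 fold change of 0.07 at 300 mg/kg-d, and of the other lists Cdkn1b rose (0.26, SE 0.05, adjusted p = 0.000206), as did E2f5 (0.25) and Ccnf (0.40).

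On day 5 in lung, Pcna was lower at 1250 ppm and none of the 43 was called at 2500 ppm. Pcna had 21.9, 22.9 and 25.3 CPM in females at 1250 ppm, against 24.1, 27.6 and 29.5 CPM in females at 0 ppm. Males at 1250 ppm had 18.8, 20.1 and 23.7 CPM, against 23.6, 24.6 and 27.1 CPM in males at 0 ppm. The groups overlapped only at their edges, and the log2 fold change over both sexes was -0.25 (SE 0.05, adjusted p = 0.00534), where 1.52% of all genes were called. At 2500 ppm it was -0.08 (adjusted p = 0.614), so the values did not fall in dose order. Over dose order Pcna (-0.04 per step, adjusted p = 0.0451) and E2f1 (-0.06 per step, adjusted p = 0.0362) declined with both sexes, where 1.06% of all genes were called. At 2500 ppm over both sexes edgeR and DESeq2 called none of the 43 and 4 genes had an unadjusted p below 0.05, where 0.0766% of all genes were called.

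**Figure D5:**
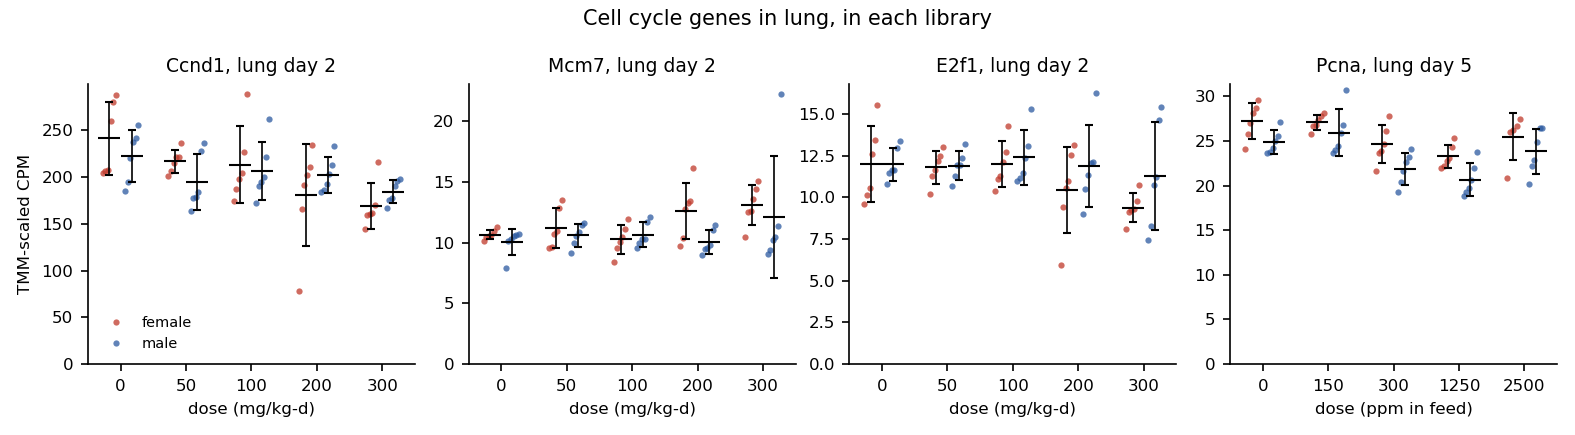
Ccnd1, Mcm7 and E2f1 in every lung library of day 2, by dose in mg/kg-d, and Pcna in every lung library of day 5, by dose in ppm, all in CPM, with females to the left and males to the right at each dose and bars giving mean ± SD. A single male library at 300 mg/kg-d stands at 22.3 CPM for Mcm7, above all others of its panel.

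Females at 300 ppm in lung on day 5 had higher values for many mitotic genes without a call. There 38 of 43 log2 fold changes were positive and 14 genes had an unadjusted p below 0.05, with Cenpf at 0.89, Mki67 at 0.70 and Top2a at 0.63. The smallest adjusted p was 0.105, edgeR called none, DESeq2 called 1 gene, Mki67 (adjusted p = 0.0498), and 0.0128% of all genes were called. The summed mitotic CPM had a median of 207 and ran from 189 to 367 in these females, against a median of 167 and a range of 127.6 to 235 in females at 0 ppm. At 2500 ppm the median was 163 CPM. Males at 300 ppm went the other way, with 12 of 43 log2 fold changes positive and 31 negative. At 2500 ppm over both sexes 4 were positive and 39 negative, with a median of -0.12. Over dose order with both sexes 2 were positive and 41 negative, and 13 genes had an unadjusted p below 0.05. On day 28 in lung edgeR called none of the 43 at any dose, at most 3 had an unadjusted p below 0.05 in any comparison of a dose with 0 ppm, DESeq2 called none, and at most 3.33% of all genes were called.

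The change at 300 mg/kg-d differed between liver and lung for 6 of the 43 genes over both sexes, E2f8 upwards and Mcm5, Mcm6, Mcm3, E2f2 and Gins1 downwards, which is 14%. All 43 passed the filter of the joined tables, though only 26 passed it in liver alone. This share therefore includes genes that were too low to test in liver. Of all genes 20% were called, 12% upwards and 7.93% downwards. The fits did not pair libraries of the 2 tissues by number, since the labels do not say that a number is a mouse. On day 2, however, 37 of 49 liver libraries correlated best with the lung library of their own number. With the number as a block, E2f8, Mcm5, Mcm6 and E2f2 were past the threshold over both sexes, and Mcm3 and Gins1 were not. In males E2f8 alone was past it with the block, and in females no gene was. E2f8 had a log2 fold change of 1.47 in liver and -0.11 in lung, with a liver minus lung difference of 1.61 (SE 0.39, adjusted p = 0.00161). By sex that difference was 1.33 in females (adjusted p = 0.117; 5.91% of all genes called) and 1.88 in males (SE 0.57, adjusted p = 0.0299; 8.26% called). Mcm5 had -1.19 in liver and -0.05 in lung, a difference of -1.11 (SE 0.24, adjusted p = 0.000542), and Mcm6 had -0.69 in liver and 0.03 in lung, a difference of -0.69 (SE 0.16, adjusted p = 0.000989). The differences were -0.82 for E2f2 (SE 0.22, adjusted p = 0.0049), -0.62 for Gins1 (SE 0.20, adjusted p = 0.0167) and -0.42 for Mcm3 (SE 0.14, adjusted p = 0.0232). Without liver vehicle replicates 7 and 9, 5 of the 6 differences were past the threshold over both sexes, with E2f8 at 1.90 (adjusted p = 0.000204) and Mcm5 at -0.77 (adjusted p = 0.0136), and Mcm3 at -0.26 (adjusted p = 0.177) was not. In females Mcm6 was past the threshold with all libraries, at -0.85, and not without these, at -0.63 (adjusted p = 0.0595). Ccnd1, lower in both tissues at that dose, had a difference of -0.54 (adjusted p = 0.161). At 2500 ppm edgeR called no difference between the tissues on day 5 (4 genes at an unadjusted p below 0.05; 0.062% of all genes called) or on day 28 (7 genes; 0.192% called) over both sexes, and DESeq2 was not run for these differences.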

How the data were processed

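RNA from liver and lung was prepared with a stranded mRNA kit, per the labels' protocols. The deposited tables hold raw read counts per gene, which the authors made with Trimmomatic, Bowtie2, SAMtools and HTSeq on mm10, per the submitters' processing notes. Tool versions, and any use of strand in counting, were not given in the sources used here. In all, 1 unnamed column was left unused. Sample titles gave the groups. Titles and other labels differ in dose in 96 libraries and in sex in 48, all of day 28, and the sex of the title was that shown by Y-linked genes in 359 of 359.

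Each tissue and day was fitted as 10 groups with edgeR 4.0.16 (R 4.3.3), TMM scaling, filterByExpr with a minimum count of 10 and the robust quasi-likelihood test, two-sided. Contrasts were each dose against vehicle per sex, the mean of both sexes, a linear trend over dose order and the female minus male effect. Liver minus lung and day 28 minus day 5 were interaction terms in joined tables. Alternatives were RLE size factors, no filter, DESeq2 1.42.0, the compared groups alone, place in the number block, removal of the length trend, single libraries left out and a replicate block. Coordinates are from GENCODE M21. The scripts were tested on counts simulated after liver of females on day 2. With changed genes only, 3.33% of 180 calls at 300 mg/kg-d were unchanged genes. With a length trend of set strength added and left in, 94.1% of 3084 calls were genes given no other change. With that trend removed it was 3.87% of 181 calls. The main fits of the real data left the length trend in place.

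The genes and lists were chosen with earlier results of these data known. Values per library are given for E2f8, for genes past the threshold in at least 2 highest-dose contrasts, and for 4 further genes with the smallest adjusted p (E2f2, Pcna, Rrm2 and Ccna2), and for at most 6 genes of a list. Mcm7, Mki67, Top2a and other genes named outside this rule were chosen after their values were seen.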

Additional observations from a re-analysis of the deposited data

Results flagged for a closer look

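Of 140 groups of CPM values examined, those of the 9 genes called in liver on day 2 and of E2f8 in every table, 9 held a library far from the others of its group, where chance gives about 1 in 20 groups. In liver on day 2 these were E2f2 in males at 50 mg/kg-d (replicate 22, 2.22 CPM) and in females at 50 mg/kg-d (replicate 32, 1.53 CPM), Mcm2 in vehicle females (replicate 9, 6.22 CPM), Mcm3 in females at 200 mg/kg-d (replicate 64, 6.44 CPM), Mcm5 in females at 300 mg/kg-d (replicate 75, 2.22 CPM), and Mcm6 in females at 50 mg/kg-d (replicate 32, 14.5 CPM) and in vehicle males (replicate 7, 5.99 CPM). In liver on day 28 they were E2f8 in females at 300 ppm (replicate 203, 23.5 CPM) and in males at 0 ppm (replicate 164, 32.3 CPM).

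The effect of 300 mg/kg-d differed between liver and lung on day 2 by the interaction test without pairing by library number. With the number as a block, Mcm3 and Gins1 over both sexes, Mcm5 in males and Mcm6 in females were not past the threshold. The liver minus lung differences in log2 fold change were 1.61 over both sexes and 1.88 in males for E2f8, -1.11 over both sexes and -1.62 in males for Mcm5, -0.69 over both sexes and -0.85 in females for Mcm6, and -0.82 for E2f2, -0.62 for Gins1 and -0.42 for Mcm3 over both sexes.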

How the results depend on the processing

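The count of genes past the threshold stayed within 1.5 times its value in 444 combinations of a comparison with an alternative setting and moved further in 20. Of the single gene results, 622 kept their side of the threshold, 38 lost the call and 10 gained it. The sign changed in 3, of which 0 were past the threshold in either fit. In liver on day 2, DESeq2 gave 1 call in place of 0 at 50 mg/kg-d in males and over both sexes. Fitting only the compared groups gave 0 in place of 1 in males at 100 mg/kg-d and 0 in place of 2 in females at 200 mg/kg-d, and no filter gave 0 in place of 1 at 100 mg/kg-d over both sexes. Without female replicate 64, or without female replicate 9, there were 0 in place of 2 in females at 200 mg/kg-d. Without replicates 7 and 9 there were 0 in females and 1 over both sexes at 200 mg/kg-d, in place of 2 each, and 4 in place of 7 in females at 300 mg/kg-d. For liver minus lung in females the same omission gave 0 in place of 1. In lung on day 2, DESeq2 gave 1 in place of 0 in females at 200 mg/kg-d, the compared groups alone gave 3 in place of 1 in females at 300 mg/kg-d, and no filter gave 1 in place of 2 over both sexes. In lung on day 5, DESeq2 gave 1 in place of 0 in females at 300 ppm and in males at 1250 ppm and 2 in place of 1 at 1250 ppm over both sexes, and no filter gave 0 in place of 2 for the dose trend. The cause was not tested. Where DESeq2 gave no adjusted p, the gene was not counted.

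With the library number shared by liver and lung as a replicate block, the liver minus lung differences on day 2 gave 1 call in place of 2 in males, 0 in place of 1 in females and 4 in place of 6 over both sexes (E2f8, Mcm5, Mcm6 and E2f2). On day 2 the median correlation of 49 same-numbered pairs was 0.0768, and 13 exceeded 0.1. Set against every lung library of its group, a liver library correlated best with its own number in 37 of 49 cases. On day 5 this was 17 of 42 and on day 28 it was 26 of 46. With 5 or 6 lung libraries in a group, these shares were above those of a random match, so same-numbered libraries may come from 1 mouse. The main fits did not pair them, since the labels do not say so. Leaving out vehicle libraries, the place and length settings over both sexes, and the alternatives for trends and sex differences were chosen after seeing the data. Low counts limit liver on day 2, where 17 of the 43 genes could not be tested.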
